A study of Rattus norvegicus with 16 samples.

Results

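The SLC25 family of solute carriers was described in rat liver after cecal ligation and puncture (CLP, the model of sepsis) under isoflurane or propofol anesthesia. Every gene symbol in the deposited counts that begins with Slc25a and a number was taken as a member, which gave 39 members of 17055 gene symbols. Of 49 family genes listed, these 39 were in the counts. Slc25a12 and Slc25a13, for example, had no entry under those symbols, so family counts, shares and ranks here cover the 39 alone. Male Sprague-Dawley rats of 10 weeks were induced and maintained with isoflurane, or were induced with ketamine-xylazine and maintained with propofol, and were ventilated with oxygen. In the sepsis groups the cecum was ligated and punctured, in the control groups it was lifted out and returned (sham surgery), and liver was taken 8 h after celiotomy in all 4 groups. Each group (Isoflurane-Sepsis, libraries 1 to 4; Isoflurane-Control, libraries 5 to 8; Propofol-Sepsis, libraries 9 to 12; Propofol-Control, libraries 13 to 16) held 4 RNA sequencing libraries, and each library was a pool of 3 rats, so every SD and test here refers to the spread between pools.

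SLC25 proteins are carriers with a shared fold that sit, for the most part, in the inner mitochondrial membrane and exchange or import the substrates that the membrane does not let through. In liver they supply the matrix with ADP, phosphate, acylcarnitines, amino acids and cofactors, and they let citrate, malate and citrulline pass between the matrix and the cytosol. Fatty acid oxidation, the urea cycle, gluconeogenesis and heme synthesis each depend on such carriers. Members were ordered here by the substrates they are known to carry.

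The libraries held between 14199422 and 49937173 reads on genes, of which 31161 to 128353 fell on SLC25 members. All 7 hepatocyte markers were detected in every group, at a summed level of 92653 to 135359 CPM (read counts per library size, scaled by TMM over the 16 libraries). The summed level of 8 neutrophil and monocyte markers was 41.7 to 120.3 CPM in Isoflurane-Sepsis against 20.3 to 23.9 in Isoflurane-Control, and 42.5 to 58.8 CPM in Propofol-Sepsis against 24.4 to 30.8 in Propofol-Control; that of 4 endothelial markers was 90.8 to 104.0 against 132 to 166 CPM under isoflurane and 128 to 132 against 157 to 193 CPM under propofol. Of the 4 endothelial markers, 3 were lower under isoflurane, and 2 were lower and 1 higher under propofol (edgeR, adjusted p below 0.05). The part of these cells in the results below was not tested. In whole liver, fewer cells of a type and less RNA per cell cannot be told apart.

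Library 10 of Propofol-Sepsis stood apart. Its 7 brain markers summed to 346 CPM against 5.99 to 26.3 CPM in the other 15 libraries. Slc25a4, the ADP/ATP carrier best known from heart, muscle and brain, was at 16.4 CPM in library 10 and at 5.09 to 8.27 CPM in every other library. Slc25a18, a glutamate carrier, was at 1.61 CPM in library 10 and at 0 to 0.242 CPM elsewhere. Results of sepsis against control under propofol are therefore also given without library 10 where that changed a call, a direction or a count. They are also given where it moved a called value by over 1.5 times. For the test of the difference between the anesthetics, the changes are given with its results below.

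**Figure D1:**
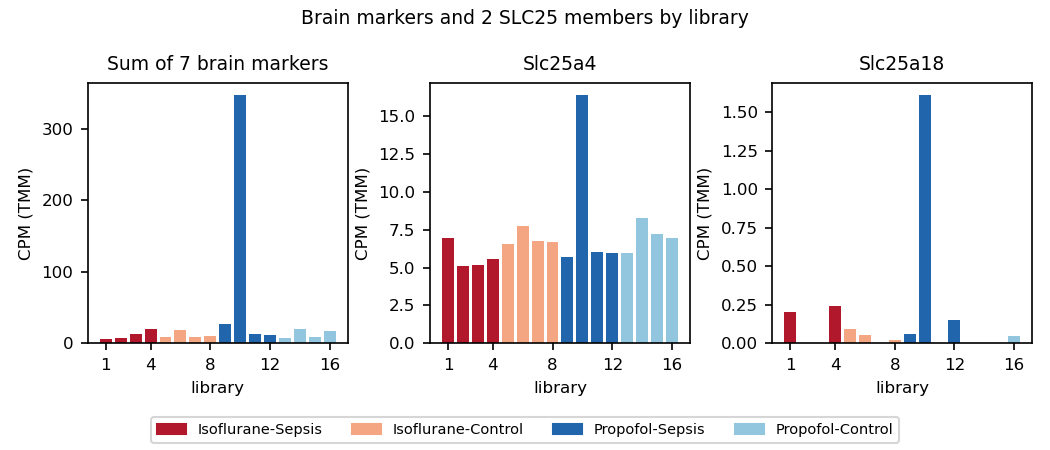
Summed CPM of 7 brain markers (left), CPM of Slc25a4 (middle) and CPM of Slc25a18 (right) in libraries 1 to 16; bars start at 0 and colours mark the 4 groups. Library 10 is the highest in all 3 panels, at 346, 16.4 and 1.61 CPM.

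Sepsis was compared with control under each anesthetic to ask which carriers differ with sepsis. SLC25 members took 0.187% to 0.225% of the reads on genes in Isoflurane-Sepsis and 0.253% to 0.258% in Isoflurane-Control, ranges that did not overlap. In Propofol-Sepsis they took 0.185% to 0.200%, below the 0.219% to 0.279% of Propofol-Control. These shares lean on the members with most reads. Slc25a47 alone had a mean of 268 CPM in Isoflurane-Sepsis against 590 in Isoflurane-Control. Under propofol its means were 195 CPM in sepsis and 615 in control. The share without it was not taken, so these shares do not show a fall across the family. A member was called where edgeR's adjusted p was below 0.05. Of the 39 members, 34 passed the filter on low counts in each sepsis comparison. Under isoflurane 14 of them were called, 2 higher and 12 lower in sepsis, where 50.0% of all 10361 genes tested were called, 25.7% higher and 24.4% lower. Under propofol 19 were called, 4 higher and 15 lower, where 42.1% of all 10348 genes tested were called, 20.4% higher and 21.7% lower. The share of members called was thus 41.2% under isoflurane and 55.9% under propofol, and in both the lower calls outnumbered the higher ones.

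The median log2 fold change of the members tested was -0.29 under isoflurane and -0.21 under propofol, and that of all genes tested was 0.01 and -0.0016. With library totals alone as the scale, the members counted 2 higher and 14 lower under isoflurane and 3 higher and 17 lower under propofol. Without library 10 the propofol counts were 5 higher and 15 lower. In 15 of 34 members the 4 sepsis libraries did not overlap the 4 control libraries under isoflurane (13 below and 2 above), where this held for 48.7% of all genes (24.4% below and 24.3% above), and in 18 of 34 under propofol (13 below and 5 above), where it held for 42.2% (21.1% below and 21.1% above).

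Over the 34 members tested in both comparisons, 9 were lower in both (Slc25a1, Slc25a11, Slc25a16, Slc25a17, Slc25a20, Slc25a27, Slc25a39, Slc25a42 and Slc25a47), Slc25a29 was higher in both, and Slc25a30 was higher under isoflurane and lower under propofol. A further 3 were called lower under isoflurane alone, 5 lower and 3 higher under propofol alone, and 12 in neither comparison. The difference between the responses was tested separately, as an interaction, and the test called 2 members.

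**Figure D2:**
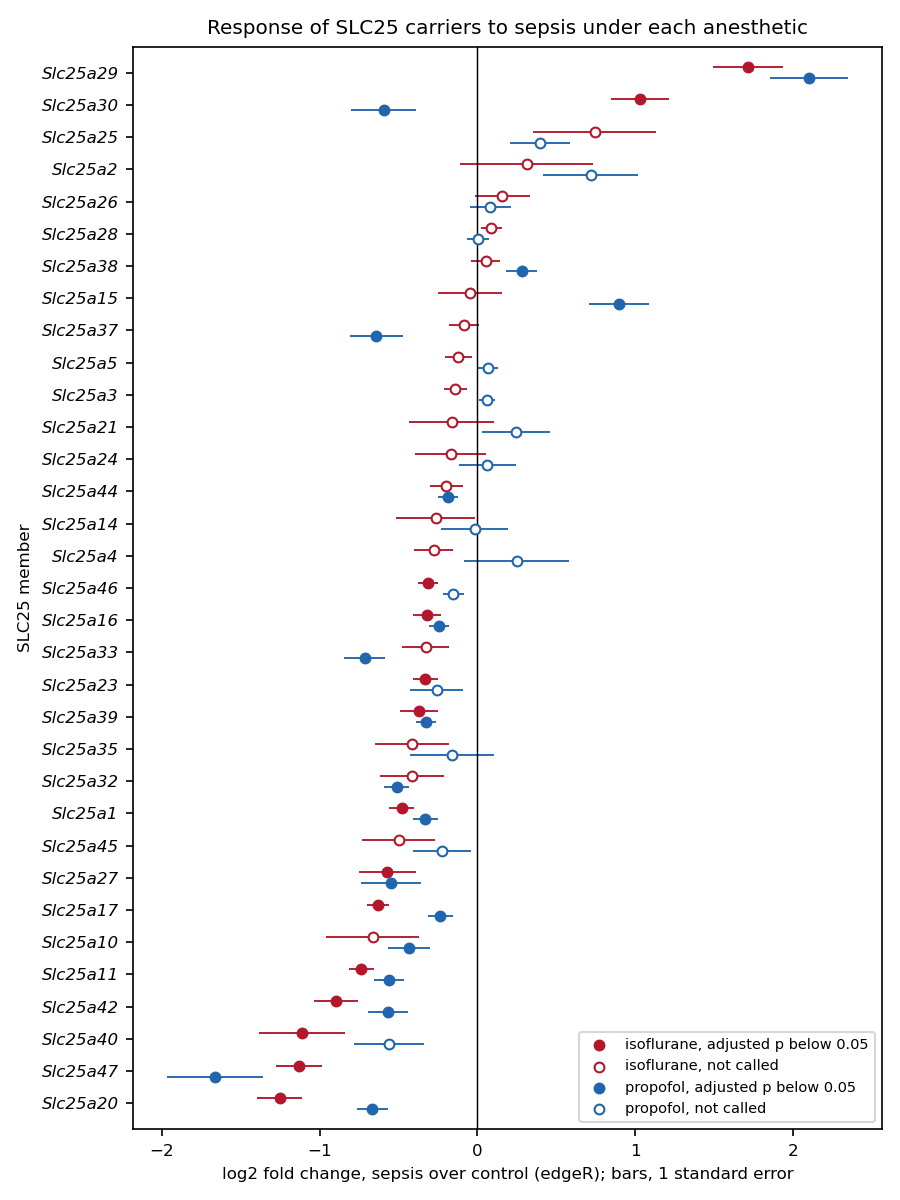
Log2 fold change of sepsis over control (x axis) for 33 of the 34 SLC25 members tested under isoflurane (red) and propofol (blue), in the order of the isoflurane values; bars are 1 standard error and filled points have an adjusted p below 0.05. Slc25a29 lies farthest to the right under both anesthetics, and most filled points lie to the left of 0.

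The carnitine-acylcarnitine carrier Slc25a20, which brings long-chain acylcarnitines into the matrix for oxidation, was lower in sepsis under both anesthetics. It was at 52.5, 55.3, 43.4 and 33.2 CPM in the Isoflurane-Sepsis libraries and at 108, 106, 117 and 109 CPM in the Isoflurane-Control libraries. Every sepsis library lay below every control library, at a log2 fold change of -1.25 ± 0.14 (SE; 2.38-fold lower, adjusted p = 0.000263). In Propofol-Sepsis it was at 97.4, 80.97, 85.02 and 94.4 CPM, and in Propofol-Control at 131, 146, 165 and 125 CPM. The groups again did not overlap, and the log2 fold change was -0.67 ± 0.10 (adjusted p = 0.000615).

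Slc25a47, a carrier made mainly by hepatocytes and a close relative of Slc25a20, had the highest mean CPM of the 39 members. Its values were 231, 251, 341 and 250.1 CPM in Isoflurane-Sepsis and 588, 523, 681 and 567 CPM in Isoflurane-Control, without overlap (log2 fold change -1.13 ± 0.14, 2.19-fold lower, adjusted p = 0.000409). Under propofol it was at 176, 254, 162 and 188 CPM in sepsis and at 347, 904, 807 and 400.3 CPM in control (log2 fold change -1.66 ± 0.30, 3.16-fold lower, adjusted p = 0.00207). All sepsis libraries lay below all control libraries, but Propofol-Control was split, with libraries 14 and 15 far above libraries 13 and 16. The third relative, Slc25a45, was at 0.570 to 1.51 CPM in the 16 libraries and was not called (log2 fold change -0.50 ± 0.23 under isoflurane and -0.23 ± 0.18 under propofol). Without library 1 its fall under isoflurane was called (adjusted p = 0.0364).

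The rest of the carnitine shuttle was counted beside Slc25a20. Of 9 other genes tested, 2 rose and 5 fell under isoflurane, with a median log2 fold change of -0.74, and 2 rose and 6 fell under propofol, with a median of -1.004. Of all genes, 25.7% rose and 24.4% fell under isoflurane and 20.4% rose and 21.7% fell under propofol. Cpt1a, the enzyme of the outer membrane that commits fatty acids to the shuttle, changed by -3.10 ± 0.15 on the log2 scale under isoflurane (adjusted p = 1.01e-05) and by -1.65 ± 0.25 under propofol (adjusted p = 0.000694). Cpt2, which acts on the acylcarnitines that Slc25a20 delivers, changed by -1.56 ± 0.11 (adjusted p = 4.01e-05) and -1.49 ± 0.15 (adjusted p = 0.000111). Cpt1b, the muscle form, and Acsl4 were the 2 that rose in both comparisons.

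Slc25a47 and Slc25a29 are neighbours in the RefSeq annotation and lie on opposite strands, and they moved in opposite directions in sepsis under both anesthetics. Their promoters, as the 250 bases before the gene start, are shown for that reason (RefSeq, build GRCr8, written on the strand of the gene). The first is chr6:133531491-133531740 on the plus strand and the second chr6:133517198-133517447 on the minus strand. The deposited counts were made on another build, and no coordinate is carried between them.

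Slc25a47: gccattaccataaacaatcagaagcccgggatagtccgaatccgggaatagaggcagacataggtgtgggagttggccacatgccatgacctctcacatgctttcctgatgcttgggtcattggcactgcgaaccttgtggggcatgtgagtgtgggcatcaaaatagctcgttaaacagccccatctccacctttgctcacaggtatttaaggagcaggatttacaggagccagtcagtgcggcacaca

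Slc25a29: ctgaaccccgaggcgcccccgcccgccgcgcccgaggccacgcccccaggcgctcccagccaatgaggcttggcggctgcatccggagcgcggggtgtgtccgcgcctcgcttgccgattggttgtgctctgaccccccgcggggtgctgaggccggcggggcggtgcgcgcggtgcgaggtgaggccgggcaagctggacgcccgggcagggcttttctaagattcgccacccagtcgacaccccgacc

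No capitals stand in either sequence, since neither held any of the 7 motifs searched on both strands. The Slc25a29 promoter was 74.8% G and C and the Slc25a47 promoter 51.6%, and the median was 58.0% over the 33 member promoters found and 51.2% over all 33469 promoters. The entries of 6 members are missing, Slc25a26, Slc25a30, Slc25a32, Slc25a37 and Slc25a46 among them.

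Slc25a29, which carries arginine, lysine and other basic amino acids, was the member with the largest rise under both anesthetics. It was at 85.7, 122, 168 and 146 CPM in Isoflurane-Sepsis and at 42.7, 44.01, 29.2 and 43.9 CPM in Isoflurane-Control (log2 fold change 1.71 ± 0.22, 3.28-fold higher, adjusted p = 0.000419). It was at 55.5, 91.5, 59.1 and 57.5 CPM in Propofol-Sepsis and at 17.6, 8.15, 18.3 and 16.9 CPM in Propofol-Control (log2 fold change 2.10 ± 0.25, 4.29-fold higher, adjusted p = 0.000212). The sepsis libraries lay above the control libraries in both comparisons. Within Propofol-Sepsis library 10 was the highest, and without it the log2 fold change was 1.91 (adjusted p = 0.000129, range over all settings 2.93e-17 to 0.000903).

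The ornithine carrier Slc25a15, which exchanges ornithine and citrulline for the urea cycle, was called higher under propofol. It was at 153, 222, 132 and 113 CPM in Propofol-Sepsis and at 88.3, 67.8, 89.04 and 86.8 CPM in Propofol-Control, without overlap (log2 fold change 0.90 ± 0.19, 1.86-fold higher, adjusted p = 0.00447). Library 10 was the highest of the sepsis libraries, and without it the log2 fold change was 0.68 (adjusted p = 0.00187, range over all settings 1e-05 to 0.0169). Under isoflurane it was at 136, 189, 253 and 154 CPM in sepsis and at 168, 208, 159 and 225 CPM in control, with overlapping libraries and a log2 fold change of -0.05 ± 0.20 (adjusted p = 0.859). The difference between the responses was -0.96 ± 0.30 on the log2 scale and was not called by edgeR (adjusted p = 0.0808), while DESeq2 called it (adjusted p = 0.0341, range over all settings 0.0341 to 0.148). The second ornithine carrier, Slc25a2, stayed under 1 CPM in every library and was not called in either comparison, but without library 10 it was called higher under propofol (adjusted p = 0.0407).

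Of 9 tested genes of the urea cycle and arginine handling, 3 rose and 2 fell under isoflurane (median log2 fold change -0.03), and 3 rose and 1 fell under propofol (median 0.16). The share called, 55.6% and 44.4%, lay near that of all genes, 50.0% and 42.1%. Those that rose under isoflurane were the arginine transporters of the plasma membrane Slc7a1 (1.15 ± 0.15) and Slc7a2 (0.66 ± 0.17) and the inducible nitric oxide synthase Nos2 (5.07 ± 0.54), all as log2 fold changes. Under propofol they were Slc7a2 (1.36 ± 0.20), Nos2 (3.37 ± 0.50) and Asl (0.43 ± 0.14), the enzyme that releases arginine. Nags, which makes the activator of the first urea cycle enzyme, was lower under isoflurane (-2.35 ± 0.22, adjusted p = 0.000110) and propofol (-1.10 ± 0.20, adjusted p = 0.00200).

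The glutathione carriers of the matrix, Slc25a39 and Slc25a40, were lower under isoflurane. Slc25a40 was at 0.798, 0.902, 0.518 and 0.423 CPM in Isoflurane-Sepsis and at 1.60, 1.73, 1.02 and 1.40 CPM in Isoflurane-Control, without overlap (log2 fold change -1.11 ± 0.27, 2.16-fold lower, adjusted p = 0.00927). These low values rest on 7 to 67 reads per library over the 16 libraries. Under propofol it was at 0.847, 0.927, 0.802 and 1.13 CPM in sepsis and 1.22, 1.05, 1.57 and 1.63 CPM in control, with overlap and no call (log2 fold change -0.56 ± 0.22, adjusted p = 0.0658). By library totals alone this fall was called (adjusted p = 0.0468).

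Slc25a39 was lower under isoflurane by -0.37 ± 0.12 on the log2 scale (adjusted p = 0.0297), a call lost when any of 5 libraries was left out (adjusted p up to 0.0697), and under propofol by -0.32 ± 0.06 (adjusted p = 0.00296). The RefSeq annotation lists 8 pseudogenes of Slc25a39, whose reads the counting may have shared, so its counts are uncertain. Slc25a38, which brings glycine into the matrix for heme synthesis, was called higher under propofol (0.28 ± 0.10, adjusted p = 0.0395), and Slc25a44, the carrier of branched-chain amino acids, lower under propofol (-0.19 ± 0.07, adjusted p = 0.0438). Both calls were lost when any of 5 libraries was left out, with adjusted p up to 0.111 for Slc25a38 and 0.110 for Slc25a44. The Slc25a38 call was also lost with library totals alone (0.0857) and with no filter (0.0724), and the Slc25a44 call in DESeq2 (0.0539), with no filter (0.0585) and in the fit of all 16 libraries (0.136), all as adjusted p.

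Among the 7 carriers of amino acids and glutathione tested, 1 rose and 2 fell under isoflurane, and 3 rose and 2 fell under propofol. The share called was 42.9% and 71.4%, against 50.0% and 42.1% of all genes. With library totals alone as the scale the propofol counts were 2 higher and 3 lower, and without library 10 they were 4 higher and 2 lower. The median log2 fold change was -0.05 and 0.28, against 0.01 and -0.0016 over all genes. Slc25a22, a glutamate carrier, had 0 reads in all 16 libraries, where 3 reads in a library would be the limit that a count of 0 allows. That limit holds only if the counting could assign reads to this gene. The counting annotation was not given, so the 0 does not show that the gene was silent.

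Slc25a42, which brings coenzyme A into the matrix, was lower under both anesthetics. It was at 61.5, 48.3, 42.8 and 35.8 CPM in Isoflurane-Sepsis and at 82.2, 89.001, 88.8 and 90.98 CPM in Isoflurane-Control (log2 fold change -0.90 ± 0.14, 1.86-fold lower, adjusted p = 0.00114). It was at 48.9, 52.2, 48.4 and 52.9 CPM in Propofol-Sepsis and at 59.1, 75.8, 94.9 and 68.8 CPM in Propofol-Control (log2 fold change -0.57 ± 0.12, adjusted p = 0.00533). The groups did not overlap in either comparison. Slc25a16, a further member linked to coenzyme A, was lower by -0.32 ± 0.09 (adjusted p = 0.0168) and -0.24 ± 0.06 (adjusted p = 0.0107), and the isoflurane call was lost without library 5 (adjusted p = 0.0506).

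Slc25a17 is the family's peroxisomal carrier, which exchanges coenzyme A, FAD and NAD across the peroxisome membrane. It was at 29.4, 29.1, 25.6 and 26.3 CPM in Isoflurane-Sepsis and at 43.6, 40.4, 44.5 and 42.4 CPM in Isoflurane-Control, without overlap (log2 fold change -0.63 ± 0.07, adjusted p = 0.000227). Under propofol it was at 36.9, 30.5, 37.6 and 36.5 CPM in sepsis and at 40.03, 43.5, 42.4 and 39.9 CPM in control (log2 fold change -0.23 ± 0.08, adjusted p = 0.0331). The propofol groups did not overlap either, but that call was lost when any of 5 libraries was left out, with adjusted p up to 0.0863, and with no filter (adjusted p = 0.0610). Library 10 was the lowest of the Propofol-Sepsis libraries at 30.5 CPM.

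**Figure D3:**
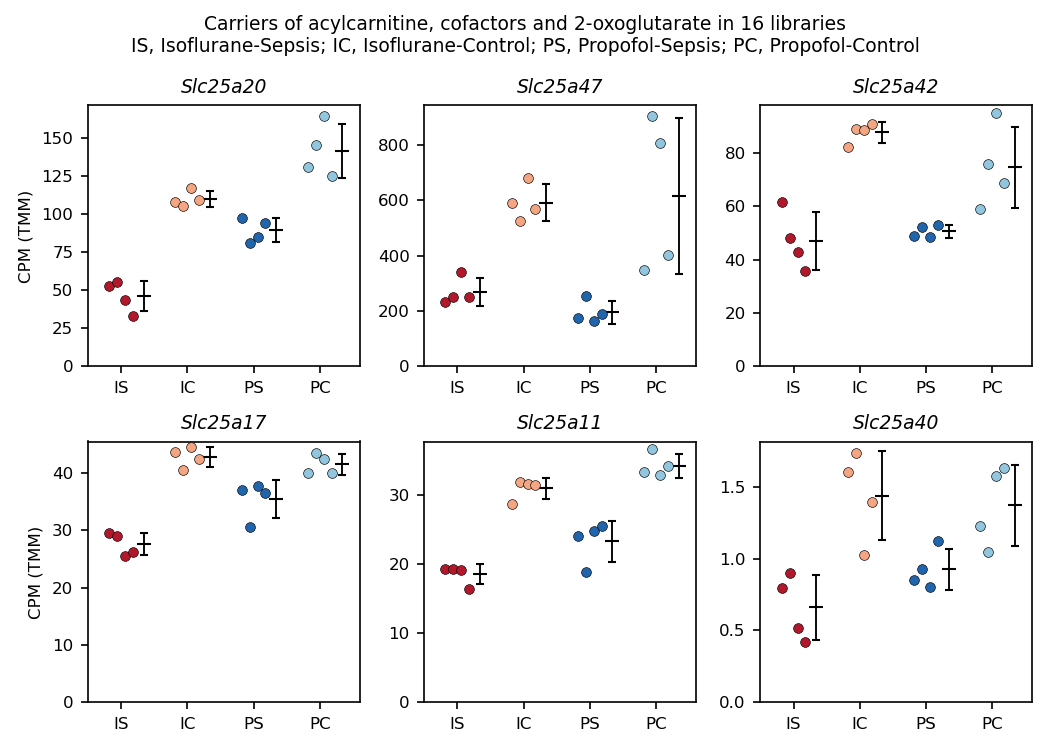
CPM (y axis, from 0) of Slc25a20, Slc25a47, Slc25a42, Slc25a17, Slc25a11 and Slc25a40 in the 4 groups, with 1 point per library and the mean and SD of 4 libraries as black bars. In every panel the 4 Isoflurane-Sepsis points lie below the 4 Isoflurane-Control points.

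The carriers that bring phosphate and ADP to ATP synthase were not called in either sepsis comparison with all libraries. The phosphate carrier Slc25a3, among the 3 highest in mean CPM, was at 311, 318, 287 and 275 CPM in Isoflurane-Sepsis and at 331, 340.2, 308 and 335 CPM in Isoflurane-Control (log2 fold change -0.14 ± 0.07, adjusted p = 0.135). It was at 263, 258, 261 and 277 CPM in Propofol-Sepsis and at 248, 256, 252 and 255 CPM in Propofol-Control (log2 fold change 0.06 ± 0.05, adjusted p = 0.372). In the propofol comparison its sepsis libraries lay above its control libraries, by a margin that the test did not call. Slc25a5, the ADP/ATP carrier with most reads here, had log2 fold changes of -0.12 ± 0.09 (adjusted p = 0.278) and 0.06 ± 0.06 (adjusted p = 0.439), the latter 0.11 without library 10 (adjusted p = 0.128), and the RefSeq annotation lists 9 pseudogenes of it. Slc25a4 had -0.28 ± 0.12 under isoflurane and 0.25 ± 0.33 under propofol, and the latter was -0.27 without library 10 (adjusted p = 0.0945). Under isoflurane Slc25a4 was called lower without library 1 (adjusted p = 0.0167) and with library totals alone (adjusted p = 0.0461).

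Slc25a25, an ATP-Mg/phosphate carrier regulated by calcium, was also among the 3 members with the highest mean CPM and was uneven between pools. It was at 221, 237, 458 and 858 CPM in Isoflurane-Sepsis and at 269.7, 246, 252 and 294 CPM in Isoflurane-Control (log2 fold change 0.74 ± 0.39, adjusted p = 0.140). Libraries 3 and 4 lay above all controls and libraries 1 and 2 below them, and without library 1 the rise was called (adjusted p = 0.0419, range over all settings 0.0419 to 0.486). Without library 4 the log2 fold change was 0.22 (adjusted p = 0.486). Under propofol it was at 159, 177, 146 and 89.97 CPM in sepsis and at 117, 85.01, 111 and 120.1 CPM in control (log2 fold change 0.40 ± 0.19, adjusted p = 0.120), and was called higher without library 12 (adjusted p = 0.00772, range over all settings 0.00772 to 0.353). Its relative Slc25a23 was lower under isoflurane (-0.33 ± 0.08, adjusted p = 0.00711), a call lost when all 16 libraries were fitted together (adjusted p = 0.0534). Slc25a24, which overlaps Slc25a54 in the annotation so that its counts are uncertain, was not called.

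The 2-oxoglutarate/malate carrier Slc25a11, an arm of the malate-aspartate shuttle, was lower under both anesthetics. It was at 19.4, 19.4, 19.2 and 16.4 CPM in Isoflurane-Sepsis and at 28.8, 31.9, 31.7 and 31.6 CPM in Isoflurane-Control (log2 fold change -0.74 ± 0.08, 1.66-fold lower, adjusted p = 0.000222). It was at 24.1, 18.97, 24.8 and 25.6 CPM in Propofol-Sepsis and at 33.3, 36.8, 32.9 and 34.2 CPM in Propofol-Control (log2 fold change -0.56 ± 0.10, adjusted p = 0.00146), without overlap in either comparison. The citrate carrier Slc25a1, which exports citrate for fatty acid synthesis, was lower by -0.48 ± 0.08 (adjusted p = 0.00139) and -0.33 ± 0.08 (adjusted p = 0.00937).

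The dicarboxylate carrier Slc25a10, which exchanges malate and succinate for phosphate, was uneven within Isoflurane-Sepsis, at 183, 159, 92.8 and 59.03 CPM, while Isoflurane-Control held 186, 204, 203 and 189 CPM. The fall of the sepsis libraries was not called (log2 fold change -0.66 ± 0.30, adjusted p = 0.0895) and was called without library 1 (adjusted p = 0.0251) and in the fit of all 16 libraries (adjusted p = 0.0350, range over all settings 0.0251 to 0.184). Under propofol it was lower (-0.43 ± 0.14, adjusted p = 0.0276), a call lost without library 14, 15 or 16 (adjusted p up to 0.0708) and in the fit of all 16 libraries (adjusted p = 0.186), and the fall was -0.29 without library 10 (adjusted p = 0.00510). The oxodicarboxylate carrier Slc25a21 and the little-studied Slc25a35 were not called in either comparison, and Slc25a34 passed the filter only when all 16 libraries were fitted.

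In all, 2 of the 5 carriers of di- and tricarboxylates tested fell under isoflurane and 3 under propofol, with none rising and medians of -0.48 and -0.33, where 24.4% and 21.7% of all genes fell. Of 8 enzymes of the malate-aspartate shuttle, the glycerol phosphate shuttle and citrate use, 1 rose and 5 fell under each anesthetic (75.0% called, against 50.0% and 42.1% of all genes), and without library 10 the propofol count was 1 higher and 3 lower. Gpd1, the cytosolic glycerol phosphate dehydrogenase, changed by -2.36 ± 0.37 on the log2 scale under isoflurane (adjusted p = 0.00112) and -1.75 ± 0.24 under propofol (adjusted p = 0.000450). Acly, which splits exported citrate, changed by -0.95 ± 0.20 (adjusted p = 0.00461) and -1.02 ± 0.25 (adjusted p = 0.00987). The enzyme that rose under propofol was Got1, the cytosolic aspartate aminotransferase, by 2.14 ± 0.25 (adjusted p = 0.000187), and under isoflurane it was Gpd2.

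Slc25a30, a carrier related to the uncoupling proteins, had the smallest adjusted p of the members in the test of the difference between the anesthetics. It was at 10.98, 13.1, 17.1 and 19.998 CPM in Isoflurane-Sepsis and at 8.28, 7.08, 6.83 and 7.83 CPM in Isoflurane-Control (log2 fold change 1.03 ± 0.18, 2.04-fold higher, adjusted p = 0.00204), and the groups did not overlap. It was at 7.17, 10.9, 8.82 and 8.57 CPM in Propofol-Sepsis and at 10.7, 13.8, 18.9 and 9.89 CPM in Propofol-Control, with library 10 above 2 controls (log2 fold change -0.59 ± 0.21, 1.51-fold lower, adjusted p = 0.0411). The propofol call was lost when any of 5 libraries was left out, with adjusted p up to 0.102. Without library 10, the highest of Propofol-Sepsis, the log2 fold change was -0.70 (adjusted p = 0.0231). The difference between the responses was 1.61 ± 0.30 on the log2 scale (adjusted p = 0.0183), and it was called in every alternative run and with each of the 16 libraries left out (adjusted p 5.93e-05 to 0.0494).

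Slc25a27, a further member of this group, was at 2.10, 1.61, 1.86 and 1.69 CPM in Isoflurane-Sepsis and 3.53, 2.18, 2.46 and 2.69 CPM in Isoflurane-Control (log2 fold change -0.57 ± 0.18, adjusted p = 0.0283). It was at 2.43, 3.27, 2.40 and 2.25 CPM in Propofol-Sepsis and 4.76, 2.91, 3.95 and 3.46 CPM in Propofol-Control (log2 fold change -0.55 ± 0.19, adjusted p = 0.0439), with overlap. The isoflurane call was lost when any of 4 libraries was left out (adjusted p up to 0.0730) and the propofol call when any of 6 was (adjusted p up to 0.120) and with no filter (adjusted p = 0.0504). Slc25a14 was not called in either comparison.

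Among the carriers of nucleotides and cofactors, Slc25a33 and Slc25a32 were lower under propofol and not called under isoflurane, and the interaction was called for neither. Slc25a33, which carries pyrimidine nucleotides, was at 7.399, 7.85, 8.12 and 6.26 CPM in Propofol-Sepsis and at 11.6, 10.1, 14.9 and 11.6 CPM in Propofol-Control, without overlap (log2 fold change -0.71 ± 0.13, 1.64-fold lower, adjusted p = 0.00208). In Isoflurane-Sepsis it was at 3.84, 3.61, 4.40 and 4.83 CPM and in Isoflurane-Control at 4.47, 5.89, 4.65 and 5.94 CPM (log2 fold change -0.33 ± 0.15, adjusted p = 0.0946). By library totals alone the fall under isoflurane was called (adjusted p = 0.0460). The difference between the responses was not called (adjusted p = 0.276).

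Slc25a32, which carries folate and FAD, was at 35.1, 34.3, 39.1 and 36.001 CPM in Propofol-Sepsis and at 54.7, 46.5, 56.6 and 47.6 CPM in Propofol-Control, without overlap (log2 fold change -0.51 ± 0.08, adjusted p = 0.000759). In Isoflurane-Sepsis it was at 26.99, 34.5, 42.5 and 19.7 CPM and in Isoflurane-Control at 39.5, 41.7, 40.9 and 43.7 CPM (log2 fold change -0.41 ± 0.20, adjusted p = 0.120). Library 3 lay within the controls, and without it the fall under isoflurane was called (adjusted p = 0.0159, range over all settings 0.0159 to 0.217). The fit of all 16 libraries called it as well (adjusted p = 0.0351). Slc25a26, the S-adenosylmethionine carrier, was not called under either anesthetic.

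Of the 2 iron carriers, mitoferrin 1 (Slc25a37) was lower under propofol, at 9.15, 6.68, 9.41 and 8.70 CPM in sepsis and 11.4, 15.3, 15.998 and 9.98 CPM in control, without overlap (log2 fold change -0.64 ± 0.17, adjusted p = 0.0127). Under isoflurane it was at 8.53, 9.41, 7.82 and 8.28 CPM in sepsis and 8.14, 8.96, 9.80 and 9.25 CPM in control (log2 fold change -0.09 ± 0.10, adjusted p = 0.476). Mitoferrin 2 (Slc25a28) had log2 fold changes of 0.09 ± 0.07 and 0.00 ± 0.07 and was not called. In the pathway that these carriers feed, 10 of 12 tested genes of heme and iron-sulfur synthesis fell under isoflurane and 6 under propofol, with none rising, where 24.4% and 21.7% of all genes fell. Alas1, the first enzyme of heme synthesis in liver, changed by -1.11 ± 0.08 (adjusted p = 3.97e-05) and -1.90 ± 0.22 (adjusted p = 0.000190) on the log2 scale. The summed level of the 5 erythroid markers found was 386 to 502 CPM in Isoflurane-Sepsis and 384 to 572 CPM in Isoflurane-Control, and 405.0 to 555.4 CPM in Propofol-Sepsis and 424 to 682 CPM in Propofol-Control.

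Slc25a46, which acts in the outer membrane on mitochondrial shape, was lower under isoflurane (-0.31 ± 0.06, adjusted p = 0.00367) and not called under propofol (-0.15 ± 0.06, adjusted p = 0.0837). By library totals alone it was called lower under propofol too (adjusted p = 0.0337). Of 20 tested mitochondrial membrane transporters outside the Slc25a symbols, 2 rose and 9 fell under isoflurane and 0 rose and 6 fell under propofol, where scaling by library totals alone gave 9 that fell. The share called was 55.0% and 30.0%, against 50.0% and 42.1% of all genes. Mpc2, a subunit of the pyruvate carrier, was among those lower in both, by -0.55 ± 0.06 and -0.48 ± 0.09 on the log2 scale. The other subunit, Mpc1, was lower under isoflurane (-0.36 ± 0.07, adjusted p = 0.00411) and not called under propofol (-0.10 ± 0.08, adjusted p = 0.347). Mtch2, a distant relative of the SLC25 carriers in the outer membrane, was also lower in both (-0.64 ± 0.08 and -0.26 ± 0.07).

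Whether sepsis changed a carrier differently under isoflurane than under propofol (the interaction, isoflurane minus propofol) was tested over all 16 libraries in 35 members and called in 2, 1 higher and 1 lower, where 2.72% of 10621 genes were called, 1.66% higher and 1.06% lower. They were Slc25a30, described above, and Slc25a17, whose fall was larger under isoflurane (difference -0.40 ± 0.10, adjusted p = 0.0489). The Slc25a17 call was lost with 14 of the 16 libraries left out in turn, with adjusted p up to 0.103, and with RLE size factors (0.0533) or no filter (0.0830). DESeq2 called 4 members, adding Slc25a15 and Slc25a20. For Slc25a20 the difference was -0.59 ± 0.18 in edgeR (adjusted p = 0.0807, range over all settings 0.0285 to 0.148). Without library 10 the same 2 members were called. Among members not called, leaving it out changed the sign for Slc25a27 (-0.03 to 0.10), Slc25a23 (-0.08 to 0.04) and Slc25a26 (0.07 to -0.03).

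Isoflurane-Control was compared with Propofol-Control to see how the carriers stood without sepsis. The anesthetic cannot be told apart here from the induction drug or from the 2 sets of library names the files carry. Of 33 members tested, 19 were called, 11 higher and 8 lower in Isoflurane-Control, where 43.3% of 10314 genes were called, 21.6% higher and 21.7% lower. With library totals alone as the scale, 6 were higher and 12 lower, and the median of all genes moved from -0.00049 to -0.15. The median log2 difference of the members was 0.04, or -0.10 by library totals alone. In 21 of the 33 the groups did not overlap, as in 40.3% of all genes. The hepatocyte markers summed to 126935 to 135359 CPM in Isoflurane-Control and to 93869 to 103244 CPM in Propofol-Control, and the part of this in the differences was not tested.

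The differences above 1 on the log2 scale were held by 4 members. Slc25a29 was 2.61-fold higher in Isoflurane-Control (1.39 ± 0.21, adjusted p = 0.000491), with its lowest library at 29.2 CPM and the highest Propofol-Control library at 18.3 CPM. Slc25a25 was 2.45-fold higher (1.29 ± 0.10, adjusted p = 1.24e-05) and Slc25a15 2.29-fold higher (1.20 ± 0.12, adjusted p = 4.41e-05). Slc25a33 was 2.28-fold lower (-1.19 ± 0.14, adjusted p = 9.08e-05), at 4.47 to 5.94 CPM against 10.1 to 14.9 CPM. Each of these 4 was called under every alternative run. Among urea cycle and arginine genes 6 of 8 tested were higher in Isoflurane-Control and 1 was lower, against 21.6% and 21.7% of all genes.

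Smaller differences ran in both directions. Slc25a3 was higher in Isoflurane-Control (0.38 ± 0.05, adjusted p = 0.000126), as were Slc25a21 (0.77 ± 0.18, adjusted p = 0.00547) and Slc25a23 (0.45 ± 0.08, adjusted p = 0.000879). Slc25a30 (-0.83 ± 0.18, adjusted p = 0.00420), Slc25a37 (-0.54 ± 0.14, adjusted p = 0.0111), Slc25a39 (-0.38 ± 0.05, adjusted p = 0.000270) and Slc25a20 (-0.36 ± 0.08, adjusted p = 0.00460) were lower. The other 8 calls (Slc25a1, Slc25a5, Slc25a16, Slc25a26, Slc25a28, Slc25a32, Slc25a44 and Slc25a46) had log2 differences between -0.39 and 0.19, and each was lost in at least 1 alternative. Slc25a47 (-0.06 ± 0.27) and Slc25a42 (0.23 ± 0.12), both uneven between libraries of Propofol-Control, were not called. Without library 15 Slc25a42 was called at 0.36 (adjusted p = 0.00426).

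**Figure D4:**
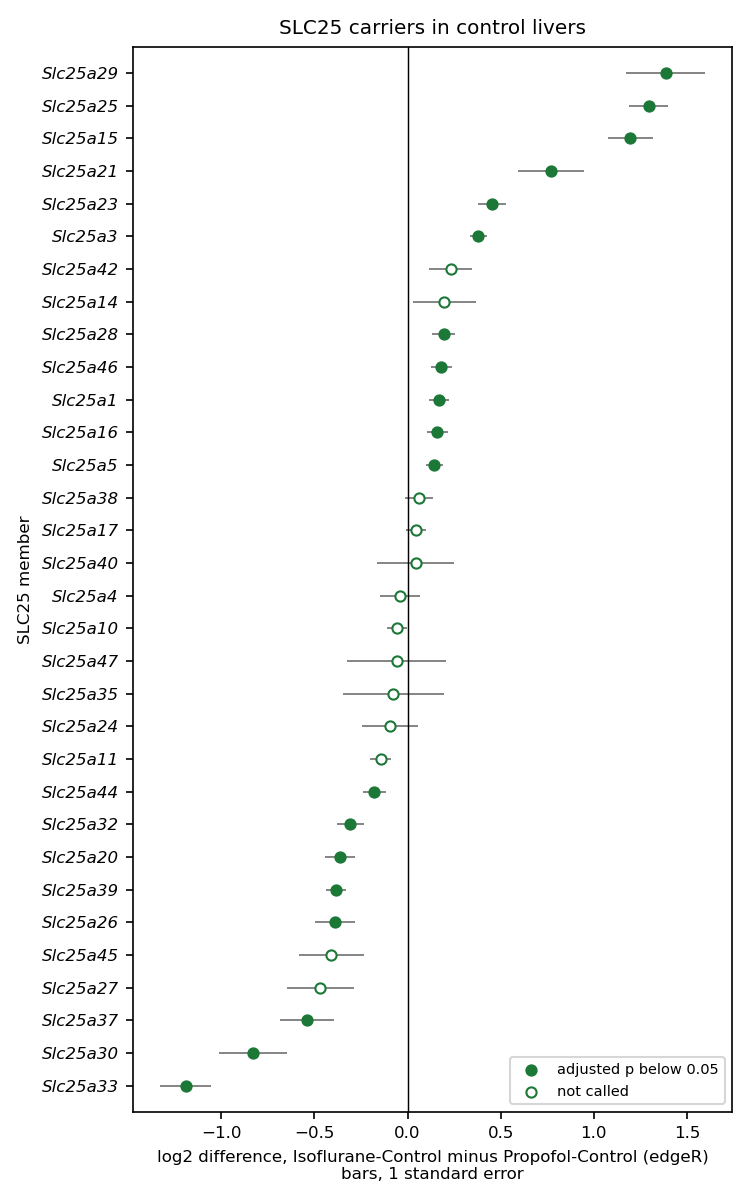
Log2 difference of Isoflurane-Control minus Propofol-Control (x axis) for 32 of the 33 SLC25 members tested, in order, with bars of 1 standard error; filled points have an adjusted p below 0.05. Slc25a29, Slc25a25 and Slc25a15 stand above 1 and Slc25a33 below -1.

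**Figure D5:**
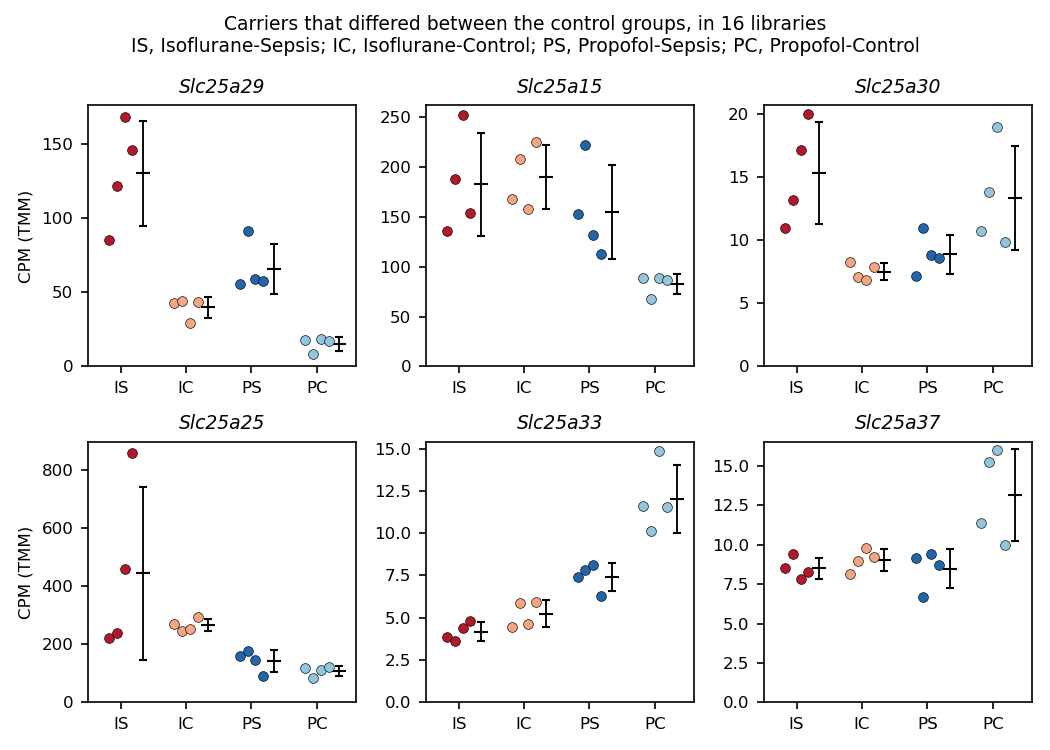
CPM (y axis, from 0) of Slc25a29, Slc25a15, Slc25a30, Slc25a25, Slc25a33 and Slc25a37 in the 4 groups, with 1 point per library and the mean and SD of 4 libraries as black bars. Slc25a30 shows Isoflurane-Sepsis above its control and Propofol-Sepsis mostly below its control, and Slc25a25 shows the spread of Isoflurane-Sepsis from 221 to 858 CPM.

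Slc25a25 and Slc25a33, which differed between the controls in opposite directions, were the 2 of 33 member promoters that held the cyclic AMP response element TGACGTCA in the 250 bases before the start, as did 1.59% of all 33469 promoters of that length. They are shown with the matches in capitals (RefSeq, build GRCr8, both on the minus strand, written on the strand of the gene). Slc25a25 is chr3:36116582-36116831, with the element 158 bases before the start and a match to TGACNNNGC, the core of the antioxidant response element, 79 bases before it. Slc25a33 is chr5:165502974-165503223, with the element 84 bases and an E box (CACGTG) 61 bases before the start.

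Slc25a25: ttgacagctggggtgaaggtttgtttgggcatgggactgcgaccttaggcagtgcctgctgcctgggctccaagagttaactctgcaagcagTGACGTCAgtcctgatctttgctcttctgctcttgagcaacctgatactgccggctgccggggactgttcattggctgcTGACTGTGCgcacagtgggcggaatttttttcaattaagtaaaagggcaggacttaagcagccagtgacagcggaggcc

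Slc25a33: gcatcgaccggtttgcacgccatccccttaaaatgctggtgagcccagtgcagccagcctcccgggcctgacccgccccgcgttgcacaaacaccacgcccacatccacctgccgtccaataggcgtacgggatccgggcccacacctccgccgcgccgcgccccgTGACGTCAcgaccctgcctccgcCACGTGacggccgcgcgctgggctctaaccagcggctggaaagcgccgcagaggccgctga

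Over all promoters the E box was in 5.59% and the antioxidant core in 10.1%, and over the 33 member promoters in 2 and 1. The NF-kB site, searched by its name's usual letters, was in 6.33% of all promoters and in 1 member (Slc25a10). TTGCNNCAA, the letters of a C/EBP site, was in 1.75% of all promoters and in 0 of the 33. The sites of NRF1, a regulator of genes for mitochondrial proteins, and the direct repeat 1 of nuclear receptors, searched by the usual letters of those names, were in 1.06% and 0.194% of all promoters and in 0 of the 33. A match is a description of these letters in this window.

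The 4 members tested in no comparison were Slc25a18, Slc25a22, Slc25a41 and Slc25a54. Slc25a41 had 1 read in 16 libraries and Slc25a54 had 20. The values of different members are not compared per length, since the counting annotation with its transcript lengths was not used here, so the order by mean CPM also reflects transcript length.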

How the data were processed

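Liver RNA of 48 rats was measured in 16 libraries of polyadenylated RNA, each pooled from 3 rats, strand-specific and sequenced from 1 end. The authors deposited raw counts, that is whole numbers of reads per gene symbol for each library, with no normalization. The submitters' processing notes name STAR and the build rn5. The counting program and annotation were not given in the sources used here. The 2 entries of each file that name no gene, which held 21.6% to 25.4% (reads outside genes) and 1.07% to 1.35% (ambiguous reads) of the reads, entered neither library sizes nor tests. Whether the counting used strand is not given either, so genes that overlap another may share reads.

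Groups came from the sample labels. Each comparison was fitted on the whole table by edgeR 4.0.16 (R 4.3.3), quasi-likelihood test, with TMM scaling and filterByExpr (minimum count 10, minimum total 15), on the 8 libraries compared or, for the interaction, on all 16. The Benjamini-Hochberg adjustment ran over every gene of a fit, with calls at an adjusted p below 0.05. SE is the log2 fold change divided by the square root of F. CPM of single libraries used TMM over the 16 libraries, with an SD over 4 libraries. The study's tool, DESeq2 1.42.0, was an alternative, as were size factors by RLE, library totals alone, no filter, a mean CPM of at least 1, a fit of all 16 libraries, and each library left out. The fit was also run on simulated counts with the same spread for every gene and group, so that run does not cover unequal spread between groups.

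Values in every library are given for members called in a sepsis comparison with an absolute log2 fold change of at least 0.5, called in the interaction, or called between controls with at least 1, and for the 3 members with the highest mean CPM. This gave 15 members. Slc25a10 and Slc25a4 were added after their values were seen. The values of 1 member, which stays in the counts, are not reported here. The members, the substrate groups and the comparison lists were chosen with earlier results of these data known. Promoter sequences came from RefSeq (GRCr8), where 33 of the 39 members matched by symbol. The motifs were chosen with these results known, and the letters of the NRF1 site and direct repeat 1 were widened after a first search had also found them in 0 member promoters. Libraries of the same group differed by more than sampling noise in each pair, so none was counted as a repeat. Depth sets the precision of the rarest members, such as Slc25a40 with 7 reads in its lowest library. The SE and SD given here cover the spread between pools as well as counting error, and not that between the rats of a pool.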

Additional observations from a re-analysis of the deposited data

Results flagged for a closer look

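The 15 members given by library were checked in each group of 4 libraries for a value far from the other 3, which made 60 groups and gave 7 such values. Chance flags about 1 in 20 groups, though members share libraries and are not independent. Slc25a4 and Slc25a18, added because library 10 stood out in them, gave 3 more, which are a description only. Of these 10, 4 were in library 10 of Propofol-Sepsis, the library with the high brain markers. They were Slc25a4 at 16.4 CPM (next 6.04), Slc25a18 at 1.61 CPM (next 0.152), Slc25a29 at 91.5 CPM (next 59.1) and Slc25a17 at 30.5 CPM (next 36.5). The part of the brain RNA in these values was not tested.

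In Propofol-Control, library 14 was the lowest for Slc25a15 at 67.8 CPM (next 86.8) and for Slc25a29 at 8.15 CPM (next 16.9). Library 16 was the one with a read of Slc25a18, at 0.0480 CPM (1 read against 0 in the other 3). In Isoflurane-Control, library 7 was the lowest for Slc25a29 at 29.2 CPM (next 42.7) and library 5 the lowest for Slc25a11 at 28.8 CPM (next 31.6). In Isoflurane-Sepsis, library 4 was the lowest for Slc25a11 at 16.4 CPM (next 19.2).

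The interaction test found a difference between the anesthetics in Slc25a30, whose response to sepsis was 1.61 higher on the log2 scale under isoflurane than under propofol (adjusted p = 0.0183 in edgeR), and in Slc25a17, whose response differed by -0.40 (adjusted p = 0.0489). The Slc25a17 call was lost with 14 of the 16 libraries left out in turn (adjusted p up to 0.103), with RLE size factors (0.0533) and with no filter (0.0830).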

How the results depend on the processing

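With each library left out in turn, 11 to 18 members were called under isoflurane (14 with all libraries), 13 to 20 under propofol (19), 15 to 19 between the controls (19) and 1 to 3 in the interaction (2). Over the other settings the counts were 14 to 16, 15 to 20, 13 to 20 and 1 to 4. For the interaction, size factors by RLE and no filter each gave 1 and DESeq2 gave 4; the cause was not tested. The lowest control count, 13, came from the fit of all 16 libraries. Over all members tested there were 2143 values under the alternatives, of which 1966 kept their direction and side of the threshold, 99 lost a call, 25 gained one and 53 changed sign, in 20 members. Of these 53, 1 was a value that edgeR had called (Slc25a5 between controls, -0.0015 by library totals). For the 15 members given by library, 871 of 945 values kept both, 39 lost a call, 16 gained one and 19 changed sign. Those 19 were values that edgeR had not called. With a library left out, log2 values ran from -0.258 to 0.0770 for Slc25a15 under isoflurane, between controls from -0.0620 to 0.156 for Slc25a40 and from -0.253 to 0.187 for Slc25a47, and in the interaction from -0.200 to 0.561 for Slc25a25, from -0.159 to 0.114 for Slc25a27 and from -0.109 to 0.248 for Slc25a32. Outside these 15, the values farthest from 0 after a change of sign were -0.273 for Slc25a4 under propofol and 0.237 for Slc25a35 between controls. By library totals, Slc25a17 and Slc25a40 were at -0.101 and -0.101 between controls. Calls of 10 members under isoflurane, 13 under propofol, 11 between the controls and 1 in the interaction held in every alternative run. No paired analysis was possible because the libraries are numbered 1 to 16 and no number is shared between groups.

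Pools hide the spread between rats, so a small p refers to pools. Members under about 1 CPM, such as Slc25a2, Slc25a40 and Slc25a45, rest on few reads, and a difference in them can escape the test at this depth.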

Other observations

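Some carriers split within a group. In Isoflurane-Sepsis the libraries 3 and 4 stood apart from 1 and 2 for Slc25a25 (458 and 858 against 221 and 237 CPM) and for Slc25a10 (92.8 and 59.0 against 183 and 159 CPM). In Propofol-Control the libraries 14 and 15 stood above 13 and 16 for Slc25a47 (904 and 807 against 347 and 400.3 CPM), Slc25a42 (75.8 and 94.9 against 59.1 and 68.8 CPM), Slc25a37 (15.3 and 15.998 against 11.4 and 9.98 CPM) and Slc25a30 (13.8 and 18.9 against 10.7 and 9.89 CPM). For Slc25a42 and Slc25a30 library 15 also stood well above library 14, so their split is less clear. These splits were seen after the values were known and were not tested.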
